A study of Mus musculus with 24 samples.

Results

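The mitochondrial ribosomal protein genes were taken as the genes whose symbol starts with Mrpl or Mrps followed by a digit, with pseudogenes left out. The rule gave 77 of the 14912 genes in the table, 48 with an Mrpl and 29 with an Mrps symbol, and used no measured value. RNA of the left ventricle was measured in male wild-type C57BL/6J mice. For 7 days, pumps under the skin gave ANG II (1500 ng/kg/min) to 12 of them, the hypertensive-LVH group, and saline to the other 12, the control group. No transgene or deletion was involved. The hearts were flushed with saline before collection, and the libraries were made from RNA bound by oligo(dT). The study describes 16 mice per group, and 4 of each group were not analysed here.

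Mitochondria carry their own ribosome, which translates the few proteins encoded by mitochondrial DNA, all of them subunits of the respiratory chain and of ATP synthase. Its RNA comes from mitochondrial DNA, but every protein of it is encoded in the nucleus, made in the cytoplasm and imported. Some of these proteins have a counterpart in the bacterial ribosome and others are found only in mitochondria. The left ventricle is rich in mitochondria, and variants in several of these genes, among them MRPL3, MRPL44, MRPS14 and MRPS22, are known causes of inherited cardiomyopathy in people. The symbols do not follow the subunits throughout. MRPS18A and MRPS30 sit in the large subunit, and the product of Mrps36 belongs to the oxoglutarate dehydrogenase complex rather than to the ribosome. The 77 genes were therefore counted as 50 of the large subunit, 26 of the small subunit and Mrps36. They lay on 17 chromosomes, with no more than 10 on any of them.

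The values derive from FPKM, fragment counts scaled to the length of the transcript and to the mapped fragments of the sample. Levels may be compared between genes, but only roughly, since the values were adjusted afterwards. They had been adjusted in 4 sets (samples 1 to 3, 4 to 6, 7 to 9 and 10 to 12 of each group), recognised from exact ties between samples, and 0.766% of all values but 0 of those of the members were below 0. The sum of all values was 482319 to 567727 in the control group and 460715 to 515185 in the hypertensive-LVH group. Control sample 3 had the largest sum, and it held the highest of the 24 values for 56 of the 77 members. Of the 12 cardiomyocyte markers 0 were at 0 in every sample, and their summed level was 50668 to 65631 in the control group and 39259 to 57304 in the hypertensive-LVH group.

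Promoter sequence is shown for 5 members, since 37 of 68 members hold at least 1 of 3 motifs there. The 150 bases before the RefSeq start are given (GRCm38.p6), 5′ to 3′ on the strand of the gene, with the match in capitals. For Mrps16 the annotation of GENCODE vM21 puts the start further upstream, at 20393634. Most of its stretch, with the match, lies inside the gene by that annotation. NRF1 is a factor known for its role at nuclear genes of mitochondrial proteins, and the first pair holds its motif, which may be read on either strand. The second pair holds CCGGAAG, on the opposite strand in Mrps16, which is the core bound by ETS factors, of which GABP (NRF2) is known at the same class of genes. Mrps11, shown last, holds the motif of YY1 on the opposite strand.
Mrps21 (chr3:95871515-95871664, strand -): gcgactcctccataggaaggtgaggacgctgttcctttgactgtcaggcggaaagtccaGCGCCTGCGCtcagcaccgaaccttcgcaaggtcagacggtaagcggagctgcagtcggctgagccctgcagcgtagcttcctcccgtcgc
Mrpl12 (chr11:120484487-120484636, strand +): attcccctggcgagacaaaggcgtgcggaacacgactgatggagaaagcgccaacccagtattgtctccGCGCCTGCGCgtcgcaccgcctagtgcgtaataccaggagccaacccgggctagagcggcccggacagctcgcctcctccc
Mrps16 (chr14:20393491-20393640, strand -): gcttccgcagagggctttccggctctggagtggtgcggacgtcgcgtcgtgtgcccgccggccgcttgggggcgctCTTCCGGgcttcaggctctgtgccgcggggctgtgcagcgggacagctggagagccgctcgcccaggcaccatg
Mrpl34 (chr8:71464776-71464925, strand +): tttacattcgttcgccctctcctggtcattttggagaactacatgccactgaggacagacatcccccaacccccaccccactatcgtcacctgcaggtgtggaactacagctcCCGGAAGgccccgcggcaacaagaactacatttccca
Mrps11 (chr7:78782981-78783130, strand +): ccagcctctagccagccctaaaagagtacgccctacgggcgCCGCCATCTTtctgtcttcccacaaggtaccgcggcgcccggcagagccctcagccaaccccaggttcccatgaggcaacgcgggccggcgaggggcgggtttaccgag
All 5 of these genes were lower in the hypertensive-LVH group, as described below. Over windows from 250 bases before to 50 after the start, 68 members had a RefSeq sequence, and 13 of them (19.1%) held the NRF1 motif, against 9.49% of 11012 tested genes. The ETS core was in 24 members (35.3%) against 16.4%, and the YY1 motif in 7 (10.3%) against 3.03%. At least 1 of the 3 motifs was in 37 members (54.4%) and in 26.1% of the tested genes. The Sp1 motif GGGGCGGGG (19.1% against 21.2%), the CCAAT box (39.7% against 38.1%) and the E-box CACGTG (7.35% against 9.87%) were found at similar shares. The ERR motif TCAAGGTCA was in 0 members and in 0.263% of tested genes. Both strands were searched, and matches of different motifs were allowed to overlap. Among members that were lower in the hypertensive-LVH group, 12 of 51 held the NRF1 motif, against 1 of 17 among the others. The ETS core was in 17 of 51 and 7 of 17, and the YY1 motif in 5 of 51 and 2 of 17. These counts are a description of the letters, and binding was not measured.

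The transcripts of the mitochondrial ribosome were lower in the hypertensive-LVH group. Of the 77 members, 57 (74%) were lower at an adjusted p under 0.05 (limma, Benjamini-Hochberg over 14026 genes) and 0 were higher. Of all genes tested, 12.6% were lower and 20.9% were higher. At an unadjusted p under 0.05, 60 members were lower and 0 higher, against 2201 and 4069 of the 14026 genes. The mean was lower for 75 members, the exceptions being Mrpl33 and Mrps10, and for 36.2% of all genes. The median log2 fold change of the members was -0.23, with quartiles of -0.32 and -0.15 and a range from -0.57 to 0.11, whereas that of all genes was 0.055. On the linear scale the median member fell by 15.2%. The decreases were moderate, and only Mrpl14 and Mrpl28 met the study's criteria for DEGs, which also ask for a log2 fold change beyond 0.5 (by them 1.4% of all genes were lower and 4.52% higher). This count was 1 without ANG II sample 6 or 12, 4 without ANG II sample 7 or control sample 2, and 0 without samples 10 to 12. The plot of all members shows a run of intervals to the left of 0 rather than a few extreme genes.

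**Figure D1:**
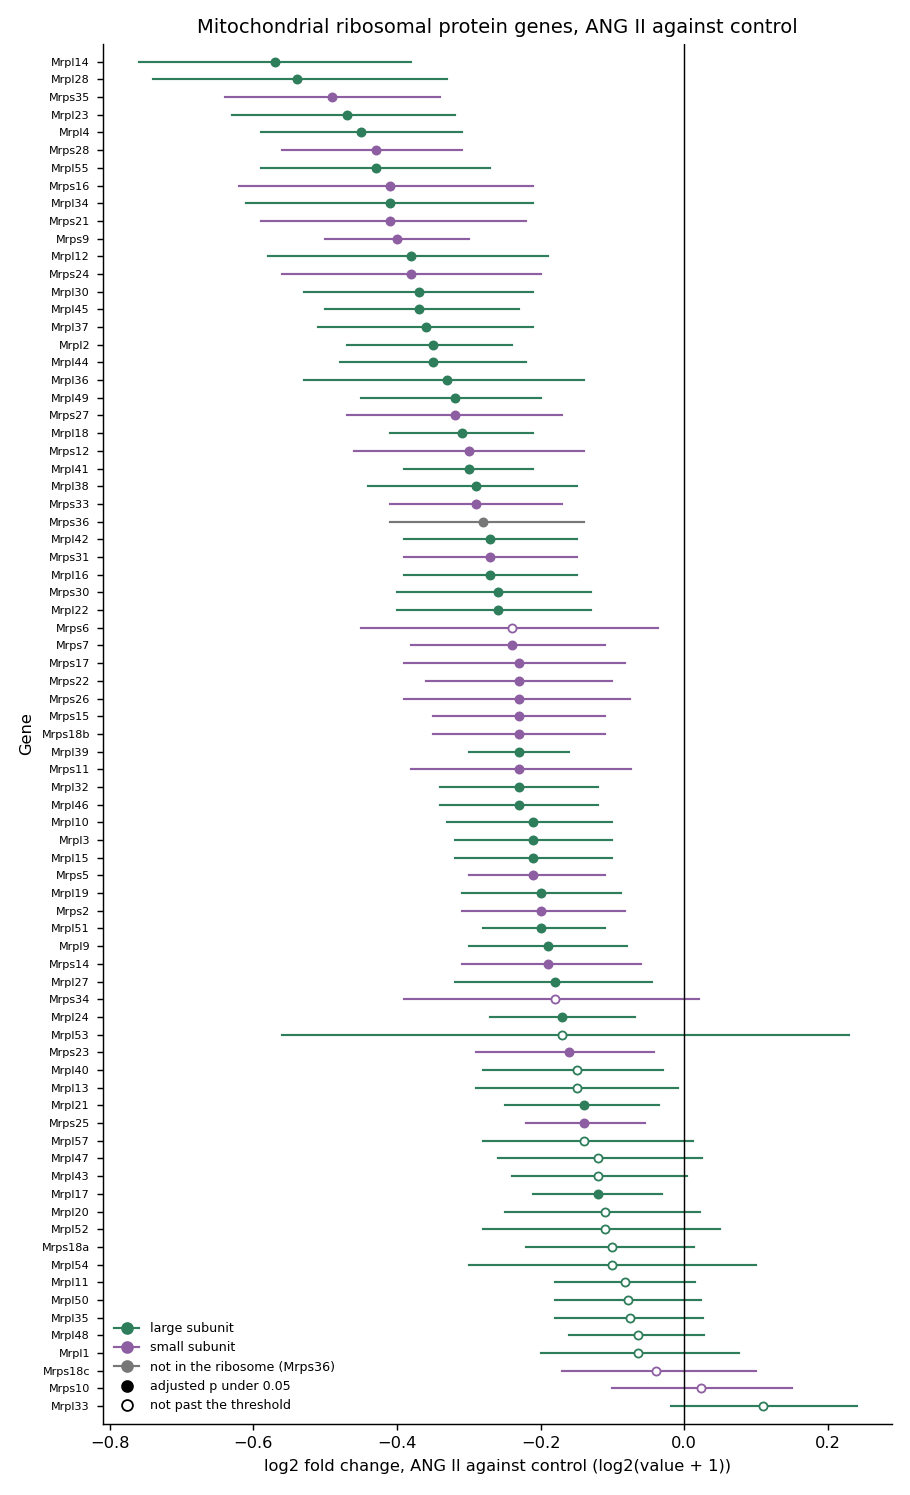
Log2 fold change of each of the 77 members, hypertensive-LVH group against control group (x axis, log2(FPKM + 1)), with the 95% interval of limma as a line. Filled points mark an adjusted p under 0.05, and colour marks the subunit. The 57 filled points lie left of 0, from Mrpl14 at -0.57 to Mrpl17 at -0.12, and the 2 points right of 0 are open.

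Groups overlapped for every member, so that 0 of 77 had all ANG II values below all control values (0.485% of all genes did). For 32 members all 12 ANG II values were below the control median, and for 7 members at least 10 of them were below the lowest control. The shares of all genes at these last marks were not counted, so these counts are a description only.

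The largest decrease was that of Mrpl14, whose product lies where the subunits meet. Its FPKM was 60.3 to 105 in the control group (median 87) and 40.1 to 68.8 in the hypertensive-LVH group (median 57.5). Each ANG II sample was below the control median and 7 were below the lowest control. The mean fell by 32.9%, from 85.1 ± 13.4 to 57.1 ± 9.27 (SD, n = 12 each), with a log2 fold change of -0.57 (SE 0.0926, limma adjusted p = 7.06e-05). The body of Mrpl14 overlaps that of Tmem63b, and reads of such pairs could be shared between them. Mrpl28, a large subunit protein with a bacterial counterpart, ranged from 73.8 to 122 (median 96) in the control group and from 42.6 to 80 (median 69.8) with ANG II. Of its ANG II values, 9 were below the lowest control. Its log2 fold change was -0.54 (SE 0.0976, limma adjusted p = 0.000228).

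In the large subunit, Mrpl23 and Mrpl4 came next. Mrpl23, at the mouth of the exit tunnel, had 80.4 to 139 FPKM (median 104) in the control group and 62 to 101 (median 74.1) in the hypertensive-LVH group, a log2 fold change of -0.47 (SE 0.0768, limma adjusted p = 6.78e-05). Mrpl4, which lines the tunnel, had 97.1 to 137 FPKM (median 116) in controls and 63.9 to 103 (median 86.5) with ANG II. Of its 12 ANG II values, 11 were below the lowest control, so that the groups barely overlapped. Its log2 fold change was -0.45 (SE 0.0675, limma adjusted p = 2.83e-05). Mrpl45, which anchors the ribosome at the inner membrane and was picked after its values were seen, fell from 49.6 ± 4.3 to 38.5 ± 5.06 FPKM (log2 fold change -0.37, limma adjusted p = 0.000188).

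In the small subunit the largest decreases were those of Mrps35 and Mrps28. Mrps35, found only in mitochondria, had 55.7 to 84.8 FPKM (median 72.2) in the control group and 41.3 to 65.4 (median 52.7) in the hypertensive-LVH group, a log2 fold change of -0.49 (SE 0.072, limma adjusted p = 2.32e-05). Mrps28 had 36.5 to 55.8 FPKM (median 45) and 28.8 to 41.5 (median 33.9), a log2 fold change of -0.43 (SE 0.0597, limma adjusted p = 1.12e-05). All ANG II samples were below the control median in both genes, and 8 and 10 of them were below the lowest control. The smallest adjusted p of any member was that of Mrps9 (3.03e-06, limma), which was singled out for it and fell from 54.2 ± 4.65 to 40.8 ± 3.08 FPKM. Mrps12, picked after its values were seen and part of the decoding centre, fell from 48.7 ± 5.79 to 39.5 ± 6.08 FPKM (limma adjusted p = 0.00475).

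**Figure D2:**
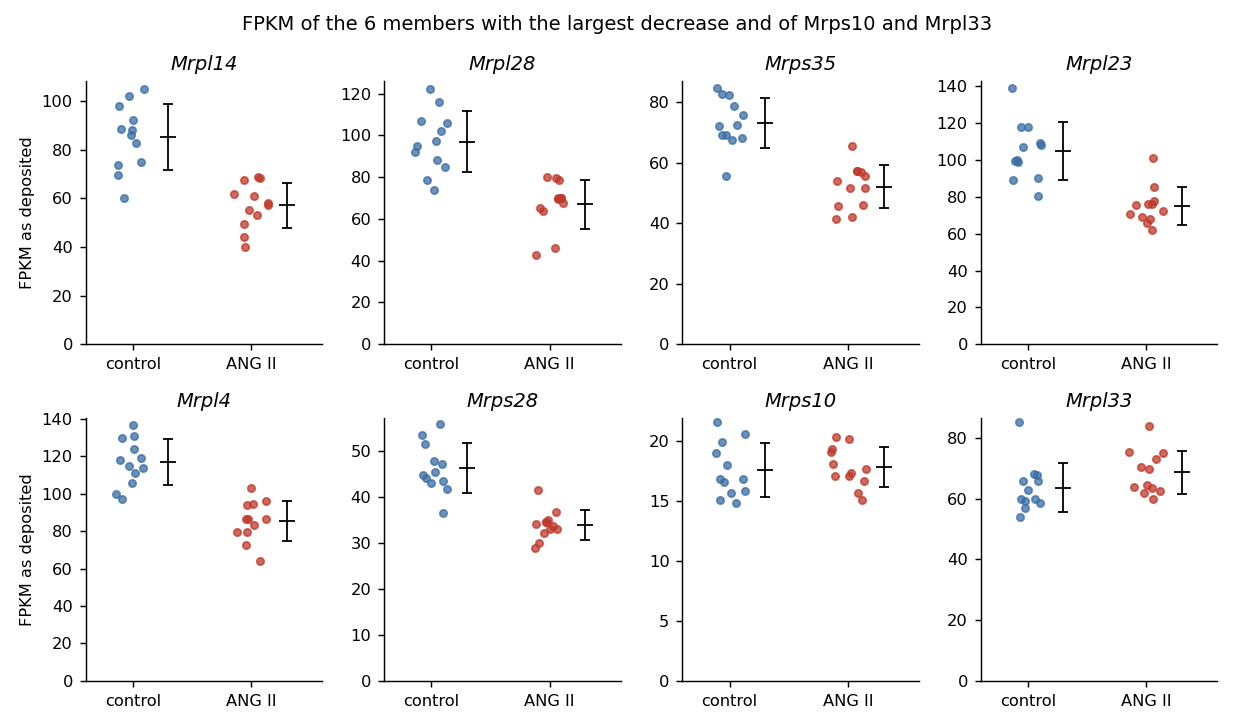
FPKM as deposited in each of the 24 samples (y axis, from 0) for the 6 members with the largest decrease and for Mrps10 and Mrpl33, the 2 members that were not lower in mean. Bars give the mean and SD of 12 samples. In the first 6 panels every ANG II point lies under the control mean, and in the last 2 the ANG II points lie within the range of the controls.

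Abundance in the control group differed widely among the members. Mrpl42 was the highest, with 323 to 422 FPKM (median 391) in the control group and 272 to 370 (median 312) in the hypertensive-LVH group (log2 fold change -0.27, limma adjusted p = 0.00103). Mrps21 (205 ± 34.3 to 154 ± 23.7 FPKM, log2 fold change -0.41) and Mrpl30 (200 ± 23.8 to 156 ± 24.1, -0.37) came next and were lower as well. The SDs of Mrps21 and Mrpl30 overlap, so that their order is not settled. At the other end stood Mrpl19 (9.1 ± 0.842 to 7.8 ± 0.819 FPKM, log2 fold change -0.20), Mrps25 (9.26 ± 0.644 to 8.32 ± 0.507, -0.14) and Mrpl17 (10 ± 0.619 to 9.14 ± 0.687, -0.12). All 6 were lower at an adjusted p under 0.05 by limma. The call of Mrpl17 was the least steady, with an adjusted p of 0.0339 by limma. It was above 0.05 in 9 of 24 fits that left out 1 sample, namely ANG II sample 1, 6, 8 or 12 or control sample 3, 4, 6, 8 or 12 (largest 0.0626). Mrpl17 also did not pass with the replicate number as a block or with the set as a term (limma adjusted p = 0.13 and 0.0602). Nor did it without samples 1 to 3, 4 to 6, 7 to 9 or 10 to 12 (limma adjusted p = 0.0715, 0.145, 0.0678 and 0.112). The median control level over the 77 members was 45.6 FPKM, and the median coefficient of variation between control samples was 10.5%.

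Members with a higher control level had the larger decreases. Of the 25 members with the lowest control level (9.1 to 33 FPKM), 15 were lower, with a median log2 fold change of -0.20. Of the next 27 (33.6 to 63.7 FPKM) 20 were lower, with a median of -0.23, and of the 25 with the highest level (63.9 to 383 FPKM) 22 were lower, with a median of -0.36. Spearman's rho between the log2 fold change and the control level was -0.49 over the 77 members, which share the same samples and are not independent. The control level enters both measures, and the 1 that was added before the logarithm makes the changes of low genes look smaller.

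The subunits showed similar medians. Of 50 large subunit members, 34 were lower (median log2 fold change -0.21), and of 26 small subunit members 22 were lower (median -0.23). Of 47 members with a bacterial counterpart 36 were lower, and of 29 found only in mitochondria 20 were lower, both with a median of -0.23. These differences between classes were not tested. Mrps36, which is not a ribosomal protein, was also lower (105 ± 11.9 to 86.5 ± 10.8 FPKM, log2 fold change -0.28, limma adjusted p = 0.00304).

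Each of the 4 members named above for inherited cardiomyopathy was lower. Mrpl44 had 31.4 to 44.6 FPKM (median 38.7) in the control group and 23.7 to 35.8 (median 30) with ANG II, and 8 ANG II samples were below the lowest control (log2 fold change -0.35, SE 0.0638, limma adjusted p = 0.000224). Its body overlaps that of Wdfy1. Mrpl3 fell from 63.9 ± 4.99 to 55.2 ± 6.02 FPKM (log2 fold change -0.21, limma adjusted p = 0.00477) and Mrps22 from 13 ± 1.47 to 10.9 ± 1.28 (log2 fold change -0.23, limma adjusted p = 0.00704). Mrps14 fell from 25.9 ± 2.45 to 22.7 ± 2.75 FPKM (log2 fold change -0.19, limma adjusted p = 0.0212), and did not pass without samples 1 to 3, 4 to 6 or 10 to 12 (limma adjusted p = 0.0884, 0.0594 and 0.133) or with the replicate number as a block (limma adjusted p = 0.0556).

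Mrpl12 forms the flexible stalk of the large subunit and is known to bind the mitochondrial RNA polymerase. It had 139 to 223 FPKM (median 175) in controls and 92.7 to 177 (median 132) with ANG II, and 11 ANG II samples were below the control median (log2 fold change -0.38, SE 0.0949, limma adjusted p = 0.00346). The 3 homologs of the bacterial S18 protein differed in value. Mrps18b fell from 41.7 ± 3.56 to 35.5 ± 4.33 FPKM (log2 fold change -0.23, limma adjusted p = 0.00478). For Mrps18a the means were 89.2 ± 9.18 and 83 ± 8.06 FPKM (log2 fold change -0.10, limma adjusted p = 0.159), and for Mrps18c they were 28.1 ± 3.18 and 27.4 ± 3.48 (-0.039, limma adjusted p = 0.672). The difference between the 3 was not tested. Mrps30, of the large subunit, fell from 29.4 ± 2.38 to 24.5 ± 3.33 FPKM (log2 fold change -0.26, limma adjusted p = 0.00317).

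Of the 20 members that did not pass the test, 18 were lower in mean. Mrpl33 had 54.1 to 85.1 FPKM (median 61.4) in the control group and 59.9 to 83.9 (median 67.2) in the hypertensive-LVH group. The groups overlapped, although only 1 ANG II value was below the control median. The log2 fold change was 0.11 (SE 0.0625, limma adjusted p = 0.175). The highest control value, 85.1, was that of control sample 3, and the other control samples reached 68.1. Without control sample 3 the log2 fold change of Mrpl33 was 0.15 (limma adjusted p = 0.0368), and without samples 1 to 3 of both groups it was 0.17 (limma adjusted p = 0.0482). The body of Mrpl33 overlaps that of Rbks. Mrps10 had 14.8 to 21.6 FPKM (median 16.8) in controls and 15.1 to 20.3 (median 17.5) with ANG II (log2 fold change 0.024, limma adjusted p = 0.783). Mrpl53 varied most, with a coefficient of variation of 32.2% in the control group. Its level followed the sets: it was at least 60.4 FPKM in samples 7 to 12 of both groups and at most 52.1 in samples 1 to 6, except for control sample 3 at 72.4.

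The decrease was seen in each set of samples. The median log2 fold change of the members was -0.19, -0.27, -0.20 and -0.29 in samples 1 to 3, 4 to 6, 7 to 9 and 10 to 12, whereas that of all genes was -0.0072, 0.18, -0.022 and 0.026. In all 4 sets 60 members had the lower mean with ANG II, against 12.8% of all genes. A further 13 had it in 3 sets, near the share of all genes (2575 of 14026). Of the 57 members called lower, 55 were lower in all 4 sets, and Mrpl27 and Mrps25 in 3. In samples 1 to 3 the size rested on control sample 3. Without it the median of that set was -0.073, and 62 members in place of 74 had the lower mean there. Without control sample 3, 53 members were lower over all samples. The effect in samples 4 to 6 differed from that in the other sets for 0 members at an adjusted p under 0.05 and for 1 at an unadjusted p under 0.05 (limma), against 17.3% and 31.4% of all genes. Of the 10 fibroblast markers 7 differed in this way and of the 10 macrophage markers 5.

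**Figure D3:**
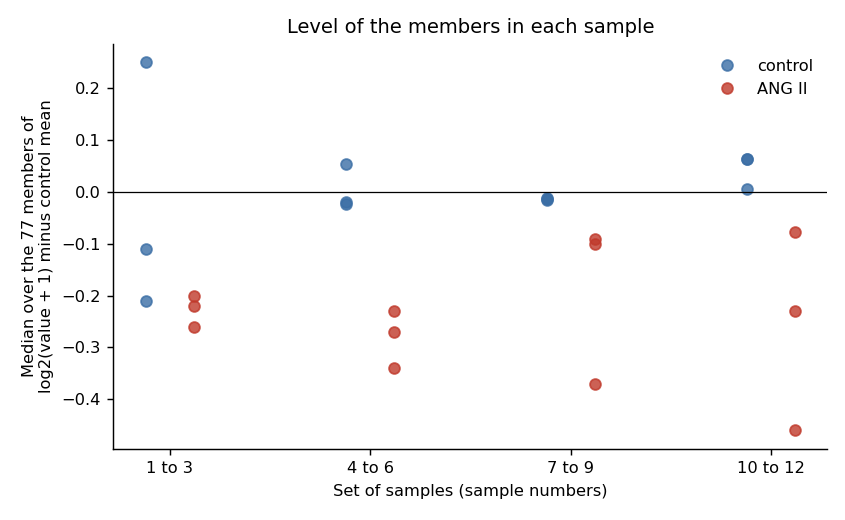
Median over the 77 members of log2(FPKM + 1) minus the control mean of each gene (y axis), for each sample, by set of samples (x axis). Control samples lie between -0.21 and 0.25 and ANG II samples between -0.46 and -0.077. In samples 4 to 6, 7 to 9 and 10 to 12 every ANG II point is below every control point, while in samples 1 to 3 control sample 3 stands alone at the top.

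Before the adjustment the members stood in the same direction. The spacing of the values gave the differences within the sets, in FPKM before the adjustment, for 73 members, all but Mrpl48, Mrpl53, Mrps2 and Mrps30. All 73 had the same direction of the mean before and after it. In an exact permutation test within the sets, adjusted over 13262 recovered genes, 51 members were lower and 0 higher, against 10.5% and 18% of the genes. These 51 were all among the 57. Mrpl14 was lower by 16.6, 20.3, 24 and 55.4 FPKM in the 4 sets (mean difference -29.1, exact permutation test, adjusted p = 0.00345). Mrpl28 was lower by 25.3, 43.9, 16.3 and 41.1 (mean difference -31.7, exact permutation test, adjusted p = 0.00183).

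The members also varied together from sample to sample. After the group means were removed, the median Pearson correlation between pairs of members over 24 samples was 0.498 (quartiles 0.258 and 0.669), against 0.0948 between all pairs of tested genes. Mrps36 had the highest median correlation with the other members (0.701). Mrpl50 (-0.325), Mrpl1 (-0.281) and Mrpl39 (-0.143) had the lowest, and Mrpl27 (-0.0435) and Mrps18c (-0.0322) were also below 0. Mrpl39 was nonetheless lower in the hypertensive-LVH group, at 51.5 ± 3.29 against 43.7 ± 2.08 FPKM (limma adjusted p = 4.53e-05), and 11 of its ANG II values were below the lowest control. These genes were named for their correlations, and all pairs share the same libraries, their depth and the adjustment by set. Control sample 3 held the highest value of 56 members and ANG II sample 12 the lowest of 36. The correlations were not computed without these samples.

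Other genes of mitochondrial translation were lower alongside the members. Of 5 mitoribosomal proteins under other symbols, 4 were lower (median log2 fold change -0.27), with the largest decrease in Gadd45gip1, a large subunit protein, from 37 ± 5.01 to 28.8 ± 4.79 FPKM (-0.36, limma adjusted p = 0.003). Of 20 aminoacyl-tRNA synthetases and amidotransferase subunits that charge mitochondrial tRNAs, 17 were lower and 0 higher (median -0.27), led by Cars2, which charges tRNA with cysteine, from 27.4 ± 2.79 to 19 ± 2.19 FPKM (-0.51, limma adjusted p = 3.43e-06). Of 23 genes of ribosome assembly and rRNA modification, 16 were lower and 0 higher (median -0.21), led by the GTPase Mtg2 from 20.4 ± 2.39 to 14.2 ± 2.12 FPKM (-0.50, limma adjusted p = 3.12e-05). Of 15 translation factors 7 were lower and 0 higher (median -0.14). Tufm, the elongation factor that brings tRNA to the ribosome, fell from 193 ± 17.4 to 148 ± 20 FPKM (-0.39, limma adjusted p = 0.000146). Of 8 genes that transcribe or copy mitochondrial DNA 4 were lower and 0 higher (median -0.14), with Tefm, a transcription elongation factor, from 13.1 ± 1.51 to 10.3 ± 1.03 FPKM (-0.31, limma adjusted p = 0.000356).

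Some subunits of complex I of the respiratory chain are made on this ribosome, and the others are encoded in the nucleus. All 36 genes of the list of nuclear ones were lower, 1 of which, Ndufa4, is now known to encode a subunit of complex IV, with a median log2 fold change of -0.42, beyond the -0.23 of the members. Ndufa3 fell from 853 ± 151 to 554 ± 103 FPKM (-0.62, limma adjusted p = 6.36e-05). Of 76 proteins of the cytoplasmic ribosome, 2 were lower and 11 were higher, against 12.6% and 20.9% of all genes, with a median of 0.071. Their median turned between the sets (-0.079, 0.18, 0.25 and -0.082), and before the adjustment 5 were higher and 1 lower of 73 recovered. The difference between them and the members was not tested. Rpl3 was higher (121 ± 22.1 to 190 ± 37.8 FPKM, 0.64, limma adjusted p = 7.3e-05). Rps2 was lower (1043 ± 133 to 880 ± 123 FPKM, -0.25, limma adjusted p = 0.0167), but with quantile normalization it was at -0.066 (limma adjusted p = 0.411), and it did not pass with the replicate block (0.0563) or without samples 4 to 6 (0.139) or 10 to 12 (0.154). In the plot by gene list the members (-0.57 to 0.11) and the cytoplasmic ribosomal proteins (-0.25 to 0.64) overlap, and the latter lie on both sides of 0.

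**Figure D4:**
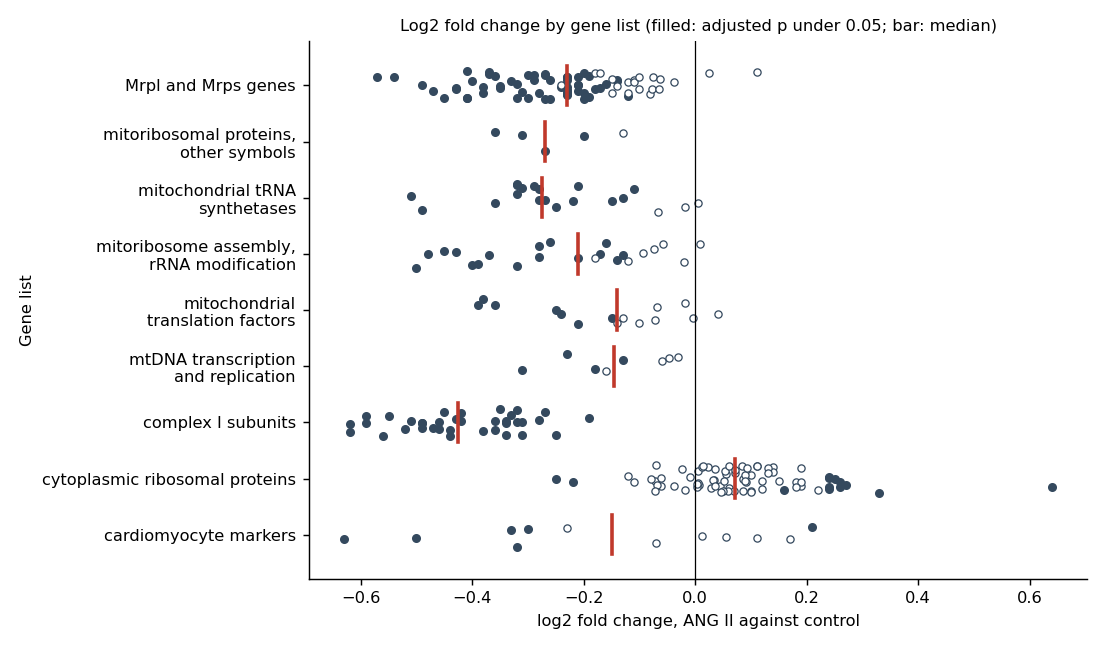
Log2 fold change (x axis, hypertensive-LVH group against control group, log2(FPKM + 1)) of each tested gene in 9 lists (rows). Filled points passed an adjusted p of 0.05 by limma and the red bar is the median of the list. The medians run from -0.42 for complex I and -0.23 for the Mrpl and Mrps genes to 0.071 for cytoplasmic ribosomal proteins.

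Markers of the cells of the ventricle moved as well. In whole tissue, fewer cells of a type and less RNA per cell cannot be told apart. Of the 12 cardiomyocyte markers 5 were lower and 1 higher (median log2 fold change -0.15), from Tnni3 at -0.63 (limma adjusted p = 8.06e-06) to Mybpc3 at 0.21 (limma adjusted p = 0.0361). The summed level of the members was 3808 to 5484 FPKM (median 4567) in controls and 3220 to 4315 (median 3737) with ANG II. As a share of all values it was 0.785% to 0.966% (median 0.894%) and 0.699% to 0.843% (median 0.772%). Per 1000 FPKM of cardiomyocyte markers, by contrast, it was 70.5 to 85.5 (median 76.8) in the control group and 70.6 to 88.1 (median 77.2) in the hypertensive-LVH group. The members fell in sum by about as much as this marker sum, of which Myl2 and Actc1 alone made up 20.7% and 20.2%. The ratio rests on the markers with the largest shares. Of the 12 markers 7 were lower in mean, and before the adjustment 4 of the 9 recovered ones were. Of 10 macrophage markers 10 were higher (Cd68, log2 fold change 0.92), of 10 fibroblast markers 6 (Col1a1, 2.77), of 10 mitotic genes 9 (Plk1, 1.15) and of 5 red blood cell genes 5 (Hba-a2, 3.39), with 0 lower. Their summed levels were 267 to 615 against 345 to 1075 FPKM for macrophages, 214 to 1130 against 786 to 2881 for fibroblasts, 7.51 to 15.3 against 16.2 to 34.7 for mitotic genes and 92.2 to 2949 against 779 to 6443 for red blood cells, with controls first. Of 10 endothelial markers 2 were higher and 1 lower (Pecam1 0.37, Kdr -0.23), with sums of 929 to 1251 and 987 to 1654. Of 6 fat cell genes 1 was higher (Cidea, 0.31), Ucp1 had a median under 0.1 FPKM in both groups, and the sums were 25.3 to 78.3 and 32.3 to 91.8. The calls of Mybpc3 and Kdr were lost in 10 and 6 of the 24 fits that left out 1 sample (largest limma adjusted p = 0.064, without control sample 4, and 0.0591, without ANG II sample 6). Mybpc3 also did not pass with median-ratio scaling (limma adjusted p = 0.212), with the replicate block, with the set as a term or without samples 1 to 3, 7 to 9 or 10 to 12, nor did Kdr with the block or without these sets (limma adjusted p = 0.156 without samples 1 to 3). Cd68 did not pass without samples 4 to 6 (limma adjusted p = 0.0539), nor Hba-a2 without samples 7 to 9 or 10 to 12 (limma adjusted p = 0.054 and 0.0615). The part of these cell types in the decrease of the members was not tested.

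Many members share a promoter region with a neighbour. In GENCODE vM21 (GRCm38), 33 of the 77 start within 1000 bases of a protein-coding gene that runs the other way, and Mrps11 and Mrpl46 form such a pair with each other. Of 28 neighbours that were tested and are no members, 7 were lower, 7 were higher and 14 did not pass, against 12.6% lower and 20.9% higher of all genes, with a median log2 fold change of 0.034 against 0.055. Beside the 19 of these members that were lower, 5 neighbours were lower, 5 were higher and 9 did not pass. Among the 12 of them whose gene bodies do not overlap, 3 neighbours were lower and 2 higher. The neighbours named below were picked with their values known.

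Pairs in opposite and in the same direction are given as a description. Mrpl30 and Mitd1 start 66 bases apart, and while Mrpl30 fell, Mitd1, a factor of cell division, rose from 2.42 ± 0.443 to 3.22 ± 0.835 FPKM (log2 fold change 0.29, limma adjusted p = 0.019). Mrpl49 and Fau start 59 bases apart. Mrpl49 fell from 26.2 ± 2.7 to 20.7 ± 2.23 FPKM (-0.32, limma adjusted p = 0.000243), and Fau, which encodes the cytoplasmic ribosomal protein S30 fused to a ubiquitin-like protein, rose from 230 ± 22.3 to 259 ± 30.4 (0.17, limma adjusted p = 0.0342). With median-ratio scaling Fau was at 0.12 and no longer passed (limma adjusted p = 0.115), nor did it without ANG II sample 5, 6, 7, 8 or 11 or control sample 4, 5, 6 or 9. Fau also did not pass with the replicate block or with the set as a term (limma adjusted p = 0.0956 and 0.0554). The same held without samples 4 to 6 or 7 to 9 (limma adjusted p = 0.248 and 0.232). With quantile normalization Mitd1 was at 0.18 and did not pass (limma adjusted p = 0.0661). Nor did Mitd1 pass without samples 4 to 6 or 7 to 9 (limma adjusted p = 0.153 and 0.0986). Wdfy1 beside Mrpl44 (0.49, limma adjusted p = 0.00122), Eme1 beside Mrpl27 (0.31, limma adjusted p = 0.000218) and Tcp1 beside Mrpl18 (0.10, limma adjusted p = 0.014) were also higher, in pairs with overlapping bodies. Tcp1 did not pass with either scaling, with the replicate block or without samples 1 to 3 or 10 to 12 (limma adjusted p = 0.0938, 0.052 and 0.146 for the last 3). In the pairs that follow both genes were lower. Sars2, which charges mitochondrial tRNA with serine, starts 172 bases from Mrps12 and fell from 10.1 ± 1.08 to 7.88 ± 1.05 FPKM (-0.32, limma adjusted p = 0.000566). Cyb5rl, 120 bases from Mrpl37, fell from 6.26 ± 0.783 to 4.59 ± 0.85 FPKM (-0.39, limma adjusted p = 0.00104). Ndufs6 of complex I, beside Mrpl36 (-0.45), Ptcd2 beside Mrps27 (-0.19) and Tmem63b beside Mrpl14 (-0.19) were lower too, although Ptcd2 did not pass without samples 1 to 3, 7 to 9 or 10 to 12. The bodies of 26 members overlap another coding gene, and the sources used here do not say whether strand was used in counting, so the values of such pairs are less certain.

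**Figure D5:**
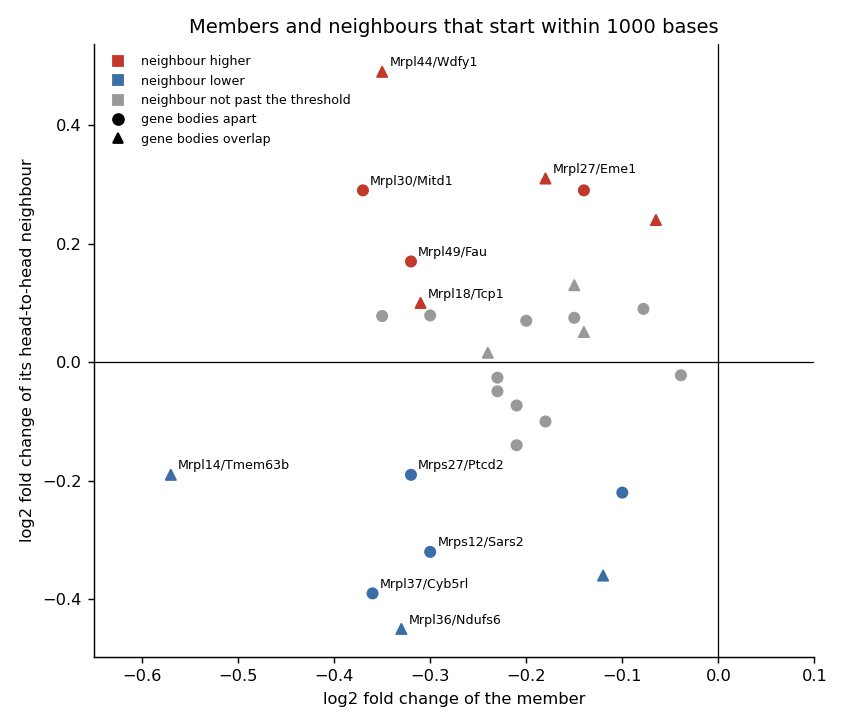
Log2 fold change of a member (x axis) and of the neighbour that starts within 1000 bases on the other strand (y axis), for 28 pairs. Red and blue mark neighbours that were higher or lower at an adjusted p under 0.05 by limma, and triangles mark pairs with overlapping bodies. All members lie left of 0, while 7 neighbours are red and 7 are blue, on both sides of the horizontal line.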

How the data were processed

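The authors sequenced mRNA of left ventricles and deposited 1 table of FPKM, which is recorded here as a score because 2741 deposited values are negative. The submitters' processing notes name Bowtie2, HISAT and RSEM, and the genome build and the step that made the negative values are not given in the sources used here. Counts per sample were not used here, and depth is unknown. Ties (215 to 541 genes within a set, 0 between sets, 278 unadjusted genes left out) gave 4 sets of 3 samples per group. Values before the adjustment were recovered under a model in which each gene was scaled in each set with the group difference set aside. It gave a single solution for 13262 of 14026 genes. An adjustment of this kind uses the group labels, so p-values on the deposited values may be too small. Exact permutations (160000) of values recovered on the 0.01 FPKM grid avoid this. They were added after the data were seen.

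Negative values were set to 0, 1 was added before log2, and 14026 genes (minimum mean 0.1) entered limma 3.58.1 (R 4.3.3) with an intensity trend, two-sided. Fold changes are on the log2(value + 1) scale. Other steps used Python 3.11.15. Scripts were tested on simulated data. P-values measure the spread between the samples as labelled. The members and lists were chosen with earlier results of these data known. Named genes were the 6 members with the largest decrease (none rose), the 3 highest and 3 lowest in controls, 10 members chosen by name, the largest change in each list and members named in a count of 5 or fewer. Others are marked in the text.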

Additional observations from a re-analysis of the deposited data

How the results depend on the processing

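Of 57 members called lower, the count was 57 with a pseudocount of 0.1, with no filter and with no intensity trend, 58 with a mean of at least 1, 60 with quantile normalization and with median-ratio scaling, and 53 with the set as a term. It was 49, 40, 55 and 45 without samples 1 to 3, 4 to 6, 7 to 9 and 10 to 12, and 53 to 59 with 1 sample left out. The exact permutation test before the adjustment called 51. The count of higher members was 0, except for 1 (Mrpl33) without samples 1 to 3 and without control sample 3, so that with 1 sample left out it was 0 to 1. The 2 members that met the criteria for DEGs became 4 with median-ratio scaling and without samples 7 to 9, 0 without samples 10 to 12, and 1 to 4 with 1 sample left out (1 without ANG II sample 6 or 12, 4 without ANG II sample 7 or control sample 2). The effect in samples 4 to 6 differed for 1 member with no trend and for 0 otherwise. The median log2 fold change ran from -0.20 to -0.25 with 1 sample left out. The median of all genes was -0.016 with quantile normalization and 0.022 with median-ratio scaling.

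Of 864 values of the 24 members named by rule under 36 settings, 833 stayed on the same side of the threshold in the same direction, 29 no longer passed, 2 newly passed (Mrpl33) and 0 reversed. Without samples 4 to 6, 8 of these members no longer passed (Mrpl3, Mrpl12, Mrpl17, Mrpl19, Mrps14, Mrps18b, Mrps30 and Mrps36), and fewer samples were fitted. Mrps25 did not pass with the block or without samples 1 to 3, 7 to 9 or 10 to 12. With the replicate block 48 members were lower. Whether the replicate numbers pair the samples cannot be told from these values. The correlation of deviations was -0.557 to -0.00109, with 0 of 12 pairs over 0.1, and 0 samples correlated best with their own number. Samples of the same number share a set, however, and the adjustment by set can itself turn the deviations of the groups against each other. The adjustment by set, the unknown depth and the lack of strand information limit these values.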
